A study of Gossypium hirsutum with 2 samples.

Results

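Xyloglucan endotransglucosylase/hydrolases (XTHs) and expansins are proteins that remodel the plant cell wall, and their transcripts were followed here in leaves of Upland cotton (Gossypium hirsutum, cultivar Acala 1517-99) with and without irrigation. Members were all probe sets of the array that the platform annotation assigned to a single cotton gene with a fitting alias. Fitting aliases were XTH or EXP, alone or with a number, and EXPA plus a number, with or without a trailing letter. This gave 7 genes with 12 probe sets, out of 520 genes with 697 single-gene probe sets, on an array with 23977 plant probe sets in all. XTH genes accounted for 5 probe sets of 3 genes and expansin genes for 7 probe sets of 4 genes. The gene table held 9 genes with such an alias, and the other 2 had 0 single-gene probe sets.

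Xyloglucan is a hemicellulose that coats and links cellulose microfibrils in the primary wall of dicots. XTH enzymes cut xyloglucan chains and either join the cut end to another chain or release it to water, while expansins loosen the contacts between wall polymers without cutting them and act best in an acidic wall. Both families take part in turgor-driven cell expansion, in leaves as in the elongating cotton fibre.

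The groups were well-watered leaves, from plots that received furrow irrigation, and drought-stressed leaves, from plots from which it was withheld. Both groups were the same cultivar, which the labels call drought tolerant, and both were sampled as the third topmost leaf 9 days after the irrigation date, each replicate being 8 plants from 1 of 3 field plots. The labels give the plants' age as 9 weeks, longer than the interval between their own planting and harvest dates. Each value is a MAS5 signal, which condenses the probes of a set into 1 linear intensity, and there was 1 array per group. Whether the plots' RNA was pooled is not stated in the labels.

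No replicate error can be had from single arrays, so the differences carry no p-value and hold for these 2 arrays only. They are given on the log2 scale as drought minus well watered, so a value below 0 means a lower signal in drought leaves. The labelled tissue was checked against 1 measurable leaf marker, the rubisco activase gene RCA1, at 16617 well watered and 20148 under drought; the lists of vascular and guard cell markers matched 0 probe sets. The ratio of 3-prime to 5-prime signal of control transcripts, which follows RNA integrity, was 14.1 and 4.09 for actin, 1.83 and 1.30 for ss1 and 5.80 and 10.2 for ubq11 on the well-watered and drought arrays. It was higher on the well-watered array for actin and ss1 and lower for ubq11, and its part in the results was not tested. In bulk leaf, fewer cells of a type and less transcript per cell cannot be told apart.

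Members expressed in leaf were first separated from those near background. A probe set was called measurable when the geometric mean of its 2 signals reached the median over all plant probe sets, a signal of 72.3. By construction, 11989 of the 23977 plant probe sets reach it, and the members matched that share. The cut thus sorts members by signal and does not by itself show expression. Of the 12 members, 6 were measurable, from 4 genes: XTH1 with both of its probe sets, XTH3, the gene listed only as XTH with 1 of its 2 probe sets, and EXPA3D with both. The other 6, from EXPA1, EXPA4, EXPA11A and the dimmer XTH probe set, lay between 5.3 and 42.4 on both arrays. The nearest members on either side of the limit were the dimmer XTH1 probe set, with a mean of 88.3, and the brightest EXPA4 probe set, with a mean of 36.7. The former was close to the limit, since its drought signal of 79.0 was near the drought array's median of 78.3.

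**Figure D1:**
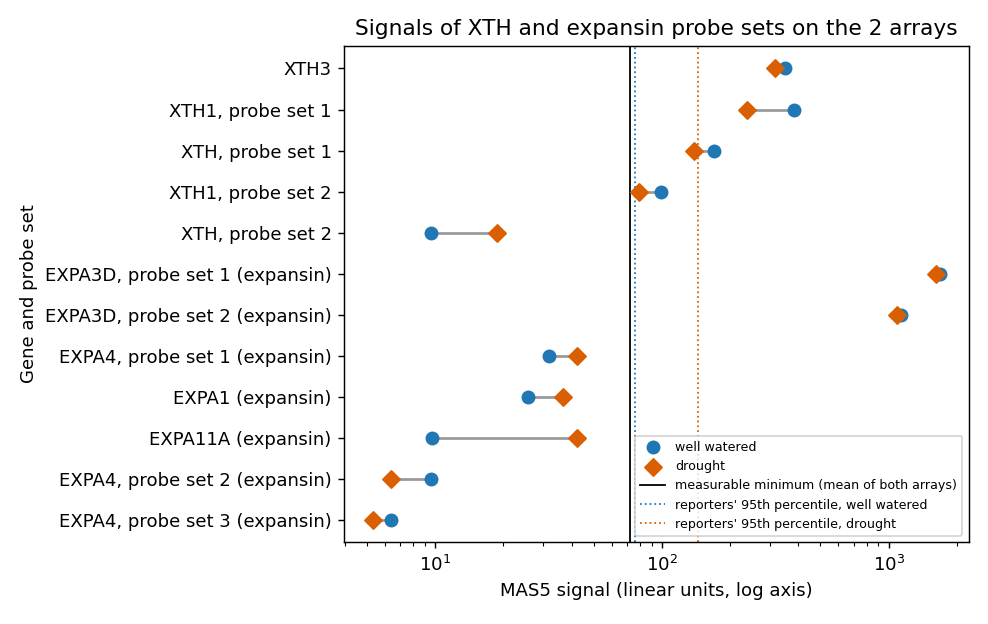
MAS5 signals (log axis) of the 12 XTH and expansin probe sets on the well-watered array (circles) and the drought array (diamonds), with the measurable minimum of 72.3 (solid line) and the 95th percentiles of the 51 dim reporter controls (dotted lines, 75.7 well watered and 143.8 drought). The 6 measurable members lie to the right of the solid line and have their drought signal to the left of the well-watered one, while the 6 dim members go both ways.

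Negative controls gave a second view of the background. Reporter control probe sets represent sequences foreign to cotton, and 51 of the 52, all but the brightest, had median signals of 11.4 (well watered) and 15.6 (drought), with 95th percentiles of 75.7 and 143.8. All 6 dim members lay under these upper limits on both arrays. On the drought array, so did the dimmer XTH1 probe set (79.0) and the measurable XTH one (138.2). This limit thus does not split the members exactly as the median does. The authors' deposited list adds detection calls for 110 probe sets, none of them a member: in it, 0 of the 3 probe sets with a well-watered signal of 31.9 or less were called present, and 0 of the 26 with a drought signal of 42.4 or less, where 31.9 and 42.4 are the highest signals of the dim members on those arrays. At or above the lowest signals of the measurable members, 98.8 and 79.0, the authors' deposited list called present 82 of 82 probe sets of well-watered leaves and 47 of 52 of drought leaves. The list's signals are not those used for the members. Its 110 probe sets all differ between the arrays, by 0.73 or more on the log2 scale, and 88 are lower in drought. Its calls therefore bear only loosely on the members.

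Transcripts of the XTH genes were lower in drought leaves at all 4 measurable probe sets, with drought signals at 0.623 to 0.91 of the well-watered ones, while the single measurable expansin gene, EXPA3D, had nearly the same signal on both arrays. The median log2 difference was -0.31 over the 4 XTH probe sets and -0.06 over the 2 of EXPA3D, against -0.01 over 11989 measurable plant probe sets. None of the 6 reached a 2-fold difference, which 2.56% of measurable probe sets reached downward and 1.82% upward. All 6 were lower in drought by some amount, as were 50.4% of measurable probe sets. Probe sets of 1 gene are not independent, so the 6 stand for 4 annotated genes. Those of XTH1 and XTH have probes shared between similar transcripts, so these genes may not be read apart.

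XTH1 (LOC107911611), which encodes an XTH enzyme, had the largest difference of the measurable members. Its brighter probe set gave 382.3 well watered and 238.2 under drought, for a log2 difference of -0.68, so the drought signal was 0.623 of the well-watered one. Both signals were above the reporters' upper limits. Of all measurable probe sets, 6.55% had a difference as low. Among the 1198 plant probe sets in its own of 20 equal signal bins, the 5th percentile was -0.66, so XTH1 lay just beyond it. In the middle of 3 equal classes of measurable signal, 8.81% of probe sets differed by as much or more in either direction. The dimmer probe set of XTH1 measured 98.8 and 79.0, a log2 difference of -0.32. Its drought signal lay under the reporters' 143.8, and a difference of that size or more was present in 57.0% of the dimmest of 3 equal classes of measurable signal.

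The pair of XTH1 probe sets thus pointed the same way and differed by 0.36 from each other. Among 60 genes with 2 or more measurable probe sets, the brightest pair differed by a median of 0.25, and 40.0% of pairs differed by as much as those of XTH1. Both XTH1 probe sets carry the suffix _s_at, which marks probes shared between similar transcripts, so their signals may include more than 1 gene copy.

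The gene annotated only as XTH (LOC107886823) had 1 measurable probe set, with 169.1 well watered and 138.2 under drought. Its log2 difference of -0.29 lay within the middle spread of its signal bin, where the 25th percentile was -0.38. The drought signal was just under the reporters' limit of 143.8. This probe set also carries the suffix _s_at, so its signal may include more than 1 gene copy. The other probe set of this gene measured 9.6 and 18.7, a log2 difference of 0.96 in the opposite direction from signals near the reporter medians. That gap of 1.25 within the gene was matched or exceeded by 10.0% of the measurable pairs, but the dim probe set would not have entered them.

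XTH3 (LOC107913353), the other numbered XTH gene, had a single probe set, with 348.0 well watered and 316.7 under drought. The log2 difference was -0.14, and 70.5% of the middle of 3 equal classes of measurable signal differed by as much or more. The drought signal was 0.91 of the well-watered one, inside the 25th to 75th percentile band of its signal bin (-0.25 to 0.16). At measurable signal the XTH probe sets ranged from -0.68, the brighter one of XTH1, to -0.14 for XTH3. The dimmer XTH1 probe set, at -0.32, lay beside XTH at -0.29. Whether the XTH genes differ from each other was not tested.

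**Figure D2:**
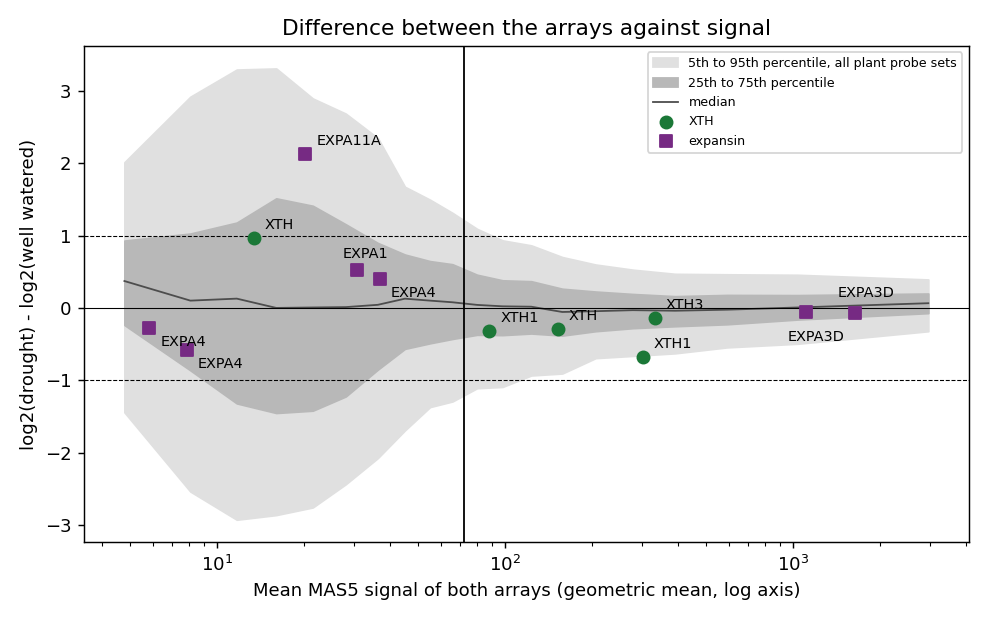
Log2 difference between the arrays (vertical axis) against the mean MAS5 signal (log axis) for XTH (circles) and expansin (squares) probe sets, over the median and percentile bands of all plant probe sets in 20 signal bins; the vertical line is the measurable minimum and the dashed lines mark 2-fold. XTH1 at -0.68 sits at the lower edge of the band, both EXPA3D probe sets sit near 0, and the dim members lie where the band itself spans more than 2-fold each way.

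Of the expansins, EXPA3D (LOC107904848), an alpha-expansin gene, was the only one with measurable signal. Its brighter probe set gave 1684.8 well watered and 1608.4 under drought, for a log2 difference of -0.07. The other measured 1133.1 and 1088.6, a difference of -0.06. These differ from each other by 0.01, and 98.3% of the 60 same-gene pairs differed by more or as much. The EXPA3D probe sets come from different transcript clusters, whose IDs mark one as sense and the other as antisense, so whether they read the same strand cannot be told from the IDs. On the well-watered array, 95.2% and 93.0% of plant probe sets were dimmer than the EXPA3D pair. Probe sets hybridise with different strength, so this places the signal on the array and does not rank transcripts.

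Of the brightest of 3 equal classes of measurable probe sets, 78.8% and 81.3% had a difference at least as large as the EXPA3D probe sets, and 0.625% of that class passed 2-fold. The brighter EXPA3D probe set was in the brightest bin, with a 5th to 95th percentile band from -0.32 to 0.39. The other was in the next bin, with a band from -0.50 to 0.46. EXPA3D was thus read in the brightest and next-brightest bins, where the arrays scatter least. The gap between the XTH and EXPA3D medians was not tested, for want of replicates.

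The remaining expansin genes were near background. EXPA1 (LOC107914543), also listed as EXP1, Exp2, EXPA1D, EXPA2 and EXPA8, is an alpha-expansin gene known for expression in elongating cotton fibres. Its probe set gave 25.6 well watered and 36.7 under drought, for a log2 difference of 0.52 that corresponds to 11.1 signal units. The suffix _x_at marks probes that can bind unrelated transcripts, and 68.1% of probe sets below the median differed by as much. Another probe set of the same cluster number is annotated to a different gene, the sucrose synthase gene susC, and was dimmer, at 13.7 and 9.7.

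EXPA4 (LOC107891056), also listed as EXPA13D, had 3 probe sets that did not point the same way. The brightest measured 31.9 and 42.2 (log2 difference 0.40). The others measured 9.6 and 6.4 (-0.58) and 6.4 and 5.3 (-0.27), below the reporter medians on both arrays. Their differences amount to 10.3, -3.2 and -1.1 signal units, and the probe set at -0.58 has an ID that marks the antisense orientation, opposite to the brightest of the same cluster.

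EXPA11A (LOC107885990), another alpha-expansin gene, had the largest log2 difference of all members and the only one past 2-fold. Its probe set gave 9.7 well watered and 42.4 under drought, for a log2 difference of 2.13. The well-watered signal was under the reporter median of 11.4 and the drought signal under the reporters' upper limit. Among probe sets below the median, 23.2% were at least 2-fold higher in drought, 21.1% at least 2-fold lower and 44.4% past 2-fold in either direction, and 14.8% differed by as much as EXPA11A. With a pseudocount of 26.4 (the 25th percentile of plant signals) added before taking logs, the difference was 0.93. Of the 6 dim members, 4 were higher and 2 lower in drought, and 45.8% of probe sets below the median were lower.

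The direction of every member was the same under median centring, quantile normalization, intensity-dependent centring and scaling to spike-in controls. Median centring and spike-in scaling take 1 constant (0.05 and 0.25) off every difference, so they could not turn a member already lower in drought. With the pseudocount, which cannot turn a sign, as a further setting, XTH1 ranged from -0.93 to -0.63 on its brighter probe set. Its other probe set ranged from -0.57 to -0.25. XTH ranged from -0.54 to -0.25 and XTH3 from -0.38 to -0.09 at measurable signal. The EXPA3D probe sets ranged from -0.31 to -0.07 and from -0.30 to -0.06. The low ends came from the 27 spike-in probe sets, transcripts added in fixed amount at hybridisation, whose median log2 difference was 0.25, so all values relative to them are lower by that amount. On that scale the array held 102 measurable probe sets higher and 628 lower by 2-fold or more, against 218 and 307 as deposited.

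**Figure D3:**
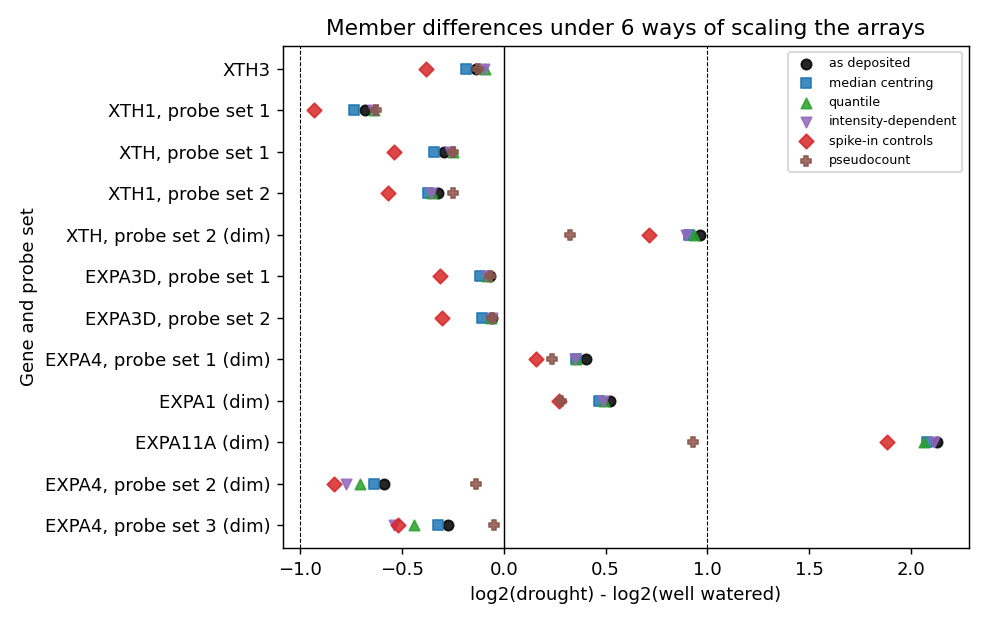
Log2 difference between drought and well-watered leaves for each of the 12 member probe sets, with the signals as deposited and under 5 alternatives (symbols); dashed lines mark 2-fold and "dim" marks members under the measurable minimum. No member has symbols on both sides of 0. The pseudocount cannot turn a sign, and median centring and the spike-in scale cannot turn a member already lower in drought. The spike-in scale gives the lowest values for all measurable members.

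Other genes of wall synthesis and growth were taken from lists of aliases, since most probe sets had no gene name. Several named below had a drought signal under the reporters' upper limit of 143.8. These were E6, HOX3, NIP6.1, FLA13, both FLA6 probe sets and the dimmer FLA14 and CesA1 ones named. The rgp1 probe sets at -1.20 and -0.60 and the TubA4 ones at 0.64 and 0.14 were also under it. In cellulose and sucrose supply, 3 probe sets were measurable, 1 higher and 2 lower, with a median of -0.38. The sucrose synthase gene Sus1, which supplies UDP-glucose to wall synthesis, measured 345.2 and 255.2 (-0.44). The cellulose synthase gene CesA1 gave opposite signs on its probe sets, -0.38 at 331.0 and 254.1 and 0.76 at the dimmer 78.8 and 133.9. Both CesA1 IDs mark the antisense orientation. So do the IDs of the rgp1 probe set at -0.60 and the TubA4 ones at 0.64 and 0.14, named below.

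Of 7 measurable probe sets for pectin and other wall polysaccharides, 2 were higher and 5 lower (1 and 6 on the spike-in scale). Their median was -0.56. Over all measurable probe sets, 50.4% were lower as deposited. The spike-in scale takes 0.25 off every difference on the array, so its counts lean lower in any list. The share over the array on that scale is not given here. RHM3, a rhamnose synthase gene that supplies pectin precursors, measured 260.4 and 169.4 (-0.62). A locus listed as GRPL1, GRPL2 and rgp1 gave -1.20 on the only probe set of the list past 2-fold, at 160.0 and 69.8, and -0.60 on another, but 0.15 on its other measurable one, so its probe sets did not point one way. CEL, an alias used for endoglucanases, measured 710.8 and 480.5 (-0.56), and UGD2, a UDP-glucose dehydrogenase gene, 566.6 and 674.2 (0.25); both were chosen after their values were seen.

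Structural wall proteins went both ways: of 10 measurable probe sets, all of fasciclin-like arabinogalactan proteins, 7 were higher and 3 lower (4 and 6 on the spike-in scale). Their median was 0.16. The largest were FLA14 at 1.28 (57.8 and 140.4), FLA6 at -1.03 (140.5 and 68.7) and FLA13 at 0.77 (78.6 and 134.3), each with its smaller signal near the measurable minimum. A second measurable probe set of FLA6 pointed the other way, at 106.3 and 121.9 (0.20), and a far brighter one of FLA14 gave 2203.7 and 2750.8 (0.32). The water channel gene NIP6.1 measured 106.0 and 117.4 (0.15), and was lower against the spike-ins.

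Fibre elongation genes, the setting in which several cotton XTH and expansin genes are known, had 22 measurable probe sets of 16 genes. Of these, 14 were higher and 8 lower (3 and 19 on the spike-in scale). Their median was 0.07. The change in counts follows from the constant of 0.25 that the spike-in scale takes off every probe set of the array. The fibre protein gene E6 measured 216.0 and 92.3 (-1.23), the beta-tubulin gene BTub3 490.4 and 308.0 (-0.67) and the alpha-tubulin gene TubA4 67.8 and 106.0 (0.64) on its dimmest probe set, with 0.23 and 0.14 on the others. Of the 3 trichome or fibre marker genes matched, E6 and the homeodomain gene HOX3 (104.1 and 66.8, -0.64) were lower beside the XTH genes. Both had drought signals under the reporters' 143.8. GHTTG1 was higher (341.4 and 446.6, 0.39). The signals of the 3 markers summed to 661.5 (well watered) and 605.7 (drought). Probe sets hybridise with different strength and GHTTG1 makes up most of the sum under drought, so the sum does not measure trichome content. The part of trichomes in the XTH values was not tested.

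**Figure D4:**
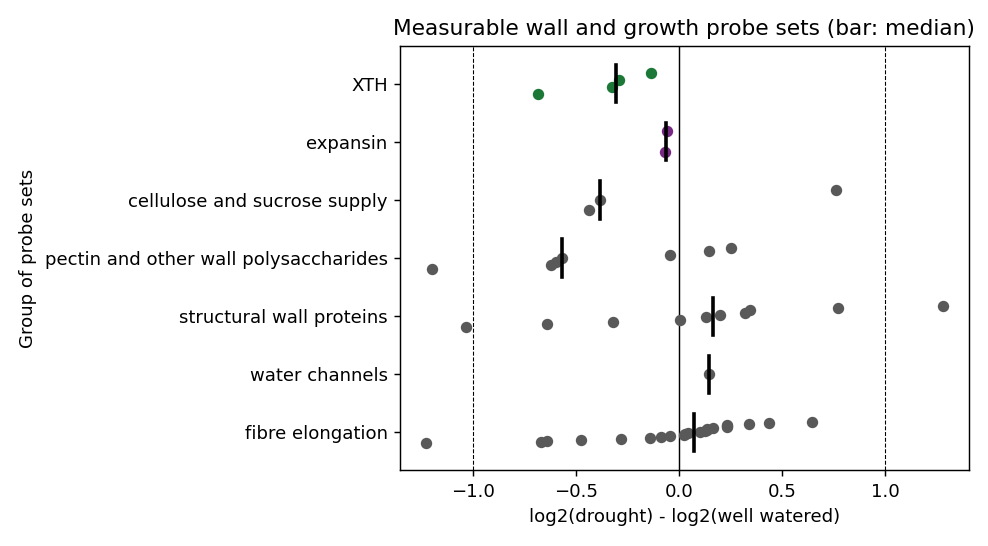
Log2 difference between drought and well-watered leaves for measurable probe sets (points, spread vertically for legibility) of the XTH and expansin members and 5 lists of other wall and growth genes, with the median of each as a bar; dashed lines mark 2-fold. The XTH points all lie below 0 with a median of -0.31, as do the EXPA3D points at -0.06, while every list with more than 1 probe set has points on both sides of 0. The medians of cellulose and sucrose supply (-0.38) and of pectin and other wall polysaccharides (-0.56) are lower than that of XTH. Those of structural wall proteins (0.16), water channels (0.15) and fibre elongation (0.07) are above 0.

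The genes nearest to the members were sought among the other named probe sets, by the Euclidean distance of the 2 log2 signals. With 2 arrays this measures only a like signal and a like difference. Nearest to XTH3, the brightest XTH probe set by mean signal, were KASIII (distance 0.01), TubA2 (0.06) and RPS16 (0.07), with differences of -0.13, -0.14 and -0.06. Nearest to EXPA3D were CPR1 (distance 0.06), ACT11 (0.10) and psmB1 (0.12), with differences of -0.10, -0.04 and 0.10.

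Of the 110 probe sets in the authors' deposited list, 88 were lower and 22 higher in drought leaves, and the smallest log2 difference in either direction was 0.73 in size. The brighter XTH1 probe set, at -0.68 in the value table, lay below that size, as did all other measurable members. EXPA11A and the dim XTH probe set exceeded it, and 0 of the 26 listed drought signals at or below that of EXPA11A were called present. The list's signals are not those used for the members, so these are loose comparisons.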

How the data were processed

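Leaf RNA was hybridised to 1 Affymetrix cotton array per group, from 5.0 µg total RNA per the labels. The authors deposited intensity values on a linear scale; the submitters' processing notes name GCOS and MAS5, with versions not given in the sources used here. Both arrays had a trimmed mean of about 250.09 (2% off each end), judged from the values. The deposited list gives signals, detection calls and a detection p-value per probe set and array, per the file headers; that p-value does not concern a difference and was not used, and the list's signals are not those of the value table. Control probe sets were left out of the 23977 plant probe sets.

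Genes came from the platform annotation joined to the gene table of Gossypium_hirsutum_v2.1, in which all 697 single-gene probe sets were found; 46 probe sets with several genes and 23234 with none were not named, so further XTH or expansin probe sets may be among them. No coordinates or sequences were used. Signals were compared with no pseudocount. Named genes were all members, up to 3 probe sets per list by size of difference, and 3 nearest genes. List aliases were matched whole, which missed spellings such as SusA1 and CslD1. Members and lists were chosen with earlier results of these data known. Scripts used Python 3.11.15, pandas 2.3.3 and statsmodels 0.14.6 (lowess span 0.3), and were tested on simulated data.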

Additional observations from a re-analysis of the deposited data

How the results depend on the processing

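The family medians kept their sign under every alternative run for them, as did all 12 member differences under the scalings (median, quantile, intensity-dependent, spike-in). For most alternatives this was fixed in advance, since all measurable members were lower in drought. Stricter filters and subsets take medians of values below 0, and median centring, spike-in scaling and the pseudocount cannot raise such values past 0. Only quantile normalization, intensity-dependent centring and no filter could have turned a family median. The XTH median lay between -0.55 (spike-in scale) and -0.14 (probe sets ending in _x_at or _s_at left out, which leaves XTH3 alone). The expansin median lay between -0.31 and -0.06. Median centring and spike-in scaling shift every difference by a constant, 0.05 and 0.25, so neither could register as a move here. A shift under 0.26, the robust SD per probe set between probe sets of the same gene, was read as no move. With the pseudocount, which cannot turn a sign, 3 of the 6 dim probe sets moved by more, EXPA11A to 0.93, the dim XTH one to 0.33 and the antisense EXPA4 one to -0.13, and intensity-dependent centring put the dimmest EXPA4 probe set at -0.54. Counts depended on the filter by construction. With no filter, 12 members entered, 4 of 7 expansin probe sets were lower, and 5842 plant probe sets passed 2-fold (3004 higher, 2838 lower) in place of 525. A filter at the 75th percentile kept 2 XTH probe sets, both lower, and 67 past 2-fold. The reporters' limit on both arrays kept the same number of XTH probe sets, 2, and 126 past 2-fold (79 higher, 47 lower). That limit is 143.8 on the drought array and 75.7 on the well-watered one, so it favours probe sets higher in drought. The median reached on both arrays left 206, and the pseudocount 288. Without probe sets ending in _x_at or _s_at, 3 members were measurable, 1 of them XTH, and 235 passed 2-fold. With 1 probe set per gene, or without antisense probe sets, 1 expansin probe set remained, and it was lower. At 1.5-fold 1964 probe sets passed and at 3-fold 82. No paired analysis was possible because each group has 1 array. Signal over background limits the dim members, and the number of arrays limits all comparisons.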
